A study of Homo sapiens with 14 samples.

Results

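The response to LINC00152 knockdown that A172 and U87 glioblastoma cells share was measured over 7 pairs of arrays, each pair holding siLINC00152 and the control siRNA with the same cell line and set number. The test took probes whose signal lay well above background, in both lines, on 3 or more arrays of the control or of the siLINC00152 group. Of 21120 tested probes outside the target locus, 185 (0.876%) were called lower and 124 (0.587%) were called higher over the 7 pairs. They stand for 144 and 108 genes with a symbol, 252 of the 11789 tested genes. A call means a mean log2 change beyond 0.5, a Benjamini-Hochberg adjusted p under 0.05 from limma and the same direction in 7 of 7 pairs. It is a call on the mean of the pairs, and 69 of the lower and 9 of the higher probes were also called in each line by itself.

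A172 and U87 are established human glioblastoma lines. The groups were A172 with a control siRNA (3 arrays), A172 with siLINC00152 (3 arrays), U87 with the control siRNA (4 arrays) and U87 with siLINC00152 (4 arrays). The control siRNA has no RNA target, and per the labels all cells were electroporated with 20 pmol/ml siRNA and harvested 40 h later, while the paper's text gives 48 h. The labels call the sets independent biological experiments. The sample titles name siLINC00152 alone, and no further siRNA was compared. Effects of losing the RNA and other effects of the siRNA therefore cannot be told apart.

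Long non-coding RNAs are transcripts without a protein product, and many take part in the control of other genes in the nucleus or in the cytoplasm. LINC00152, whose current symbol is CYTOR, is abundant in many tumours, and a near-identical copy of it lies in the MIR4435-2HG gene. An siRNA is loaded into an Argonaute protein and directs the cutting of RNA with a matching sequence, and it can also lower other RNAs that match only its seed.

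siLINC00152 #1 is shown because the paper names it for the knockdown check in both lines. The sample titles give siLINC00152 without a number, and the supplement lists a further siRNA against exon 1. The use of siLINC00152 #1 on the arrays is therefore inferred. Of this siRNA the study's supplement lists 1 strand of 25 bases. It is printed in lower case without capitals because the guide strand is not stated.
siLINC00152 #1: tgcctgtcttcagatcttcacagca

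The target itself fell in every pair. The CYTOR probe had a level of 2.52 ± 0.10 (SD, n = 3) in A172 control cells and -0.10 ± 0.33 (n = 3) with siLINC00152, and of 1.82 ± 0.09 (n = 4) and -0.91 ± 0.21 (n = 4) in U87. Levels are log2 processed signals minus the 75th percentile of the array. The mean change over 7 pairs was -2.68 (SE 0.10, adjusted p = 3.63e-06, lower in 7 of 7 pairs). Of the 5 tested probes of this locus, 4 met the rule for a call, and all 5 are left out of the counts above and below.

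Direction alone was a weaker criterion. Of the tested probes, 2257 (10.7%) moved alike in 7 of 7 pairs, 1544 of them up and 713 down. An adjusted p under 0.05 was reached by 665 probes, 364 higher and 301 lower. Of the 339 that also changed by more than 0.5, 30 had at least 1 pair in the other direction and were not called. Nearest to the thresholds, BORA (adjusted p = 0.0499) and LTBP1 (0.0499) lay inside and ZNF460 (0.05001) and ZBED4 (0.0506) outside, while PLAAT1 rose by 0.5004 and was called and RBM33 (-0.497) and TMEM9 (0.497) were not.

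The called falls were larger than the called rises. Their median change was -0.74 against 0.61, and 47 falls but 7 rises were larger than 2-fold. In 44 falls and 5 rises every single pair lay beyond 0.5. The median change of all tested probes was -0.01. Among the called falls, 126 of 185 were larger in A172 than in U87, and among the called rises 74 of 124 were larger in U87, against 8952 larger in A172 and 12168 larger in U87 among all tested probes. The share of the called rises is thus close to that of all probes. Protein-coding genes made up 82.7% of the called lower probes and 87.9% of the called higher ones, against 64.0% of all tested probes. Long non-coding RNAs gave 4 called lower and 3 called higher probes (2.16% and 2.42%, against 3.84% of all tested probes).

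**Figure D1:**
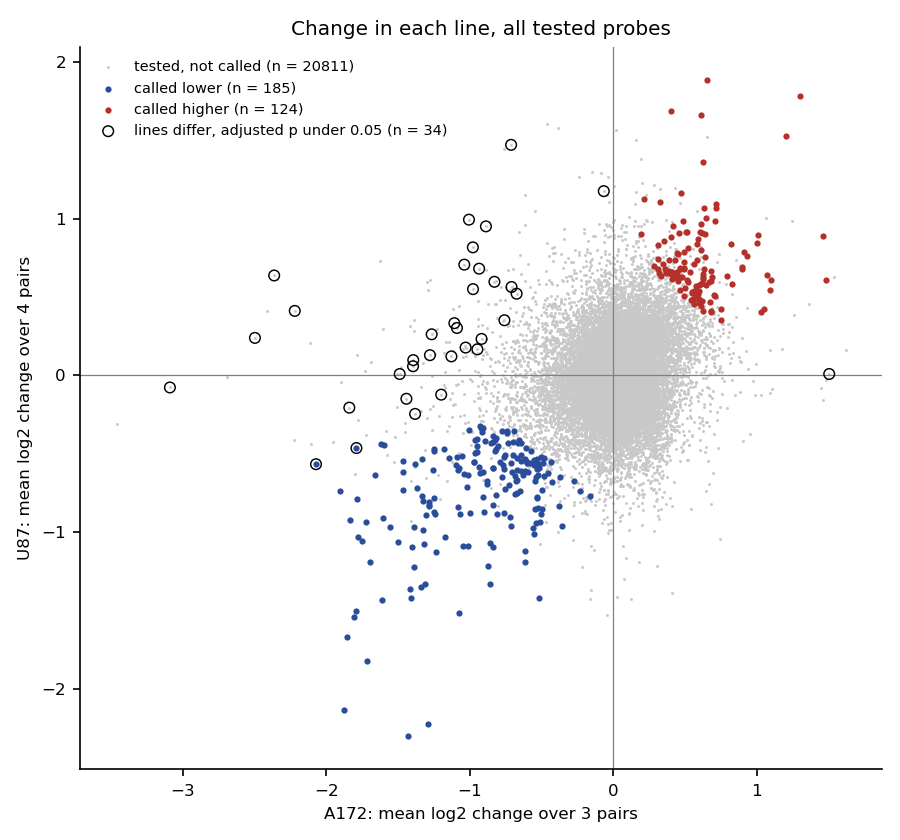
Mean log2 change in A172 (x axis, 3 pairs) and in U87 (y axis, 4 pairs) for all 21120 tested probes outside the target locus. Grey dots were not called, blue dots were called lower (185), red dots were called higher (124), and rings mark the 34 probes whose change differed between the lines.

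AGTRAP, whose protein binds the type 1 angiotensin receptor, had the lowest adjusted p of all probes outside the target locus. Its levels were -0.82, -0.28 and -0.64 on the A172 control arrays and -1.90, -1.84 and -1.92 with siLINC00152. In U87 they were 2.24, 2.25, 1.99 and 1.65 with the control and 0.76, 0.98, 0.73 and 0.35 with siLINC00152. The groups did not overlap in either line. The mean change was -1.32 (SE 0.08, adjusted p = 0.000116, lower in 7 of 7 pairs), with -1.31 ± 0.25 (SD, n = 3) in A172 and -1.33 ± 0.10 (n = 4) in U87. With normexp background correction, which added an offset of 50 to every signal, AGTRAP changed by -0.82. It is the only called member among 12 tested genes of the renin-angiotensin list (6.67% of its probes, against 1.46% of all tested probes).

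SDC4 encodes syndecan 4, a heparan sulfate proteoglycan of focal adhesions. Its levels fell from 1.37, 0.57 and 0.83 to -1.48, -0.12 and -0.46 in A172, and from 3.59, 3.62, 3.36 and 3.61 to 2.02, 2.33, 2.08 and 2.03 in U87. All arrays with siLINC00152 lay below the controls of their line, and the mean change was -1.51 (SE 0.21, adjusted p = 0.00633, lower in 7 of 7 pairs). LOXL2, a lysyl oxidase that cross-links collagen, changed by -1.31 (adjusted p = 0.00627), and SCARA3, a scavenger receptor, by -1.65 (adjusted p = 0.00199). With normexp background correction LOXL2 changed by -0.59 and SCARA3 by -0.89. The SCARA3 probe was not well above background on 2 of 4 U87 arrays with siLINC00152, and the LOXL2 probe was not on that of set 2. A brighter SCARA3 probe, well above background on all 14 arrays, had a mean of -0.38 (adjusted p = 0.0468), too small for a call. LRRC15, a leucine-rich repeat membrane protein of mesenchymal cells, changed by -1.24 (adjusted p = 0.0190) and kept its call in 2 of 7 fits that left out a pair. Its A172 pairs lay between -2.06 and -1.82. In U87 set 3 LRRC15 was well above background on neither array, so that pair's change was not measured above background.

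PGK1 is a glycolytic enzyme that makes ATP. Its levels were 5.01, 5.10 and 4.44 in A172 controls against 3.34, 3.41 and 2.56 with siLINC00152. In U87 they were 6.35, 6.68, 5.35 and 7.13 against 5.36, 5.68, 4.48 and 5.74. In U87 the groups overlapped across pairs, because set 3 was lower than the others on both arrays, while each pair fell. The mean change was -1.35 (SE 0.14, adjusted p = 0.00199, lower in 7 of 7 pairs). C6orf141, an open reading frame without an established function, changed most among the ranked genes, by -1.78 (SE 0.16, adjusted p = 0.00113). It ranged from -2.50 to -0.94 over the pairs. With normexp background correction its change was -0.87, smaller than those of PGK1 (-1.31) and SDC4 (-1.16).

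The other genes among the 12 largest ranked falls follow. AAK1, a kinase of clathrin-coated vesicles, changed by -1.38 (adjusted p = 0.00199), and a further probe of it was called at -0.79 while a brighter one had a mean of -0.23 (adjusted p = 0.133). NCOA6, a coactivator of nuclear receptors, changed by -1.30 (SE 0.10, adjusted p = 0.000439). GLTP, which moves glycolipids between membranes, changed by -1.23 (adjusted p = 0.00130). IKBKE, a kinase upstream of NF-kB and interferon regulatory factors, changed by -1.22 (adjusted p = 0.00702) and lost its call with normexp background correction. On the siLINC00152 array of U87 set 4 IKBKE was not well above background. TRIM8, a ubiquitin ligase, changed by -1.21 (adjusted p = 0.0364), by -2.07 in A172 and by -0.57 in U87. Its shared call was kept in 1 of 7 fits that left out a pair, and it was lost with normexp background correction, quantile normalization and the deposited values. The fall of TRIM8 differed between the lines (A172 minus U87 -1.503, adjusted p = 0.0335).

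TP53INP1, a p53-induced stress protein with a role in autophagy, gave the largest ranked rise. Its probe was well above background on 2 of 4 U87 control arrays and on all others. Its levels were -1.35, -1.27 and -0.51 in A172 controls and 0.56, -0.53 and 0.46 with siLINC00152. In U87 they were -1.26, -2.34, -2.02 and -1.61 against -0.38, -0.51, -0.23 and 0.01. All U87 arrays with siLINC00152 lay above the controls, whereas in A172 1 array with siLINC00152 lay below the highest control. The mean change was 1.39 (SE 0.16, adjusted p = 0.00338, higher in 7 of 7 pairs). A further TP53INP1 probe was called at 1.58 and was not well above background on any U87 control array, so it was at least 1.92-fold higher in U87.

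MOK, a kinase related to the MAP kinases that acts at the cilium, rose by 1.14 (SE 0.22, adjusted p = 0.0288). Its levels were -2.15, -1.63 and -2.01 in A172 controls against -1.41, -1.35 and -1.81, and -0.12, 0.19, 0.05 and -0.11 in U87 controls against 1.47, 1.62, 1.78 and 1.88. The U87 groups lay far apart, and the A172 groups overlapped. Its change was 0.41 ± 0.29 (SD, n = 3) in A172 and 1.69 ± 0.24 (n = 4) in U87 (adjusted p of the difference 0.0599). A further MOK probe was called at 1.36. The call of the brighter probe was kept in 3 of 7 fits without a pair.

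SLC2A3 encodes the glucose transporter GLUT3, which brain tumour cells use beside GLUT1. Its levels were -1.44, -2.92 and -2.07 in A172 controls and -1.07, -0.48 and -0.49 with siLINC00152. In U87 they were -1.0, -1.11, -1.70 and -0.79 against -0.23, -0.14, -0.81 and 0.13. The A172 pairs ranged from 0.37 to 2.44 and the U87 pairs from 0.77 to 0.97. On the control array of U87 set 3 SLC2A3 was not well above background, so the size of that pair's value was not measured. The mean change was 1.13 (SE 0.21, adjusted p = 0.0233, higher in 7 of 7 pairs). A further SLC2A3 probe was not called (mean 1.02, adjusted p = 0.0706, higher in 7 of 7 pairs), and the call of the first was kept in 3 of 7 fits without a pair.

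PPIF, the cyclophilin D of the mitochondrial matrix, rose by 0.98 (adjusted p = 0.0174), by 1.49 in A172 and by 0.61 in U87, and kept its call in 4 of 7 fits without a pair. GCAT, which breaks down threonine to glycine, rose by 0.94 (adjusted p = 0.00267). On the control array of U87 set 3 GCAT was not well above background either. COQ10A, which binds coenzyme Q, rose by 0.93 (adjusted p = 0.0253), and MRS2, the magnesium channel of the inner membrane, by 0.91 (adjusted p = 0.0299). The other ranked rises were the chromatin-associated protein NUPR2 (0.92), the FTS-hook complex subunit FHIP2A (0.88), the lipid phosphatase PLPP3 (0.87), the dystroglycan kinase POMK (0.87) and the RNA-binding protein RBMS1 (0.85). Of these, FHIP2A (SE 0.10, adjusted p = 0.00325) and POMK (SE 0.10, adjusted p = 0.00275) had the smallest errors. A brighter RBMS1 probe (-0.02, adjusted p = 0.913) and a dimmer one (0.53, adjusted p = 0.0881) were not called.

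**Figure D2:**
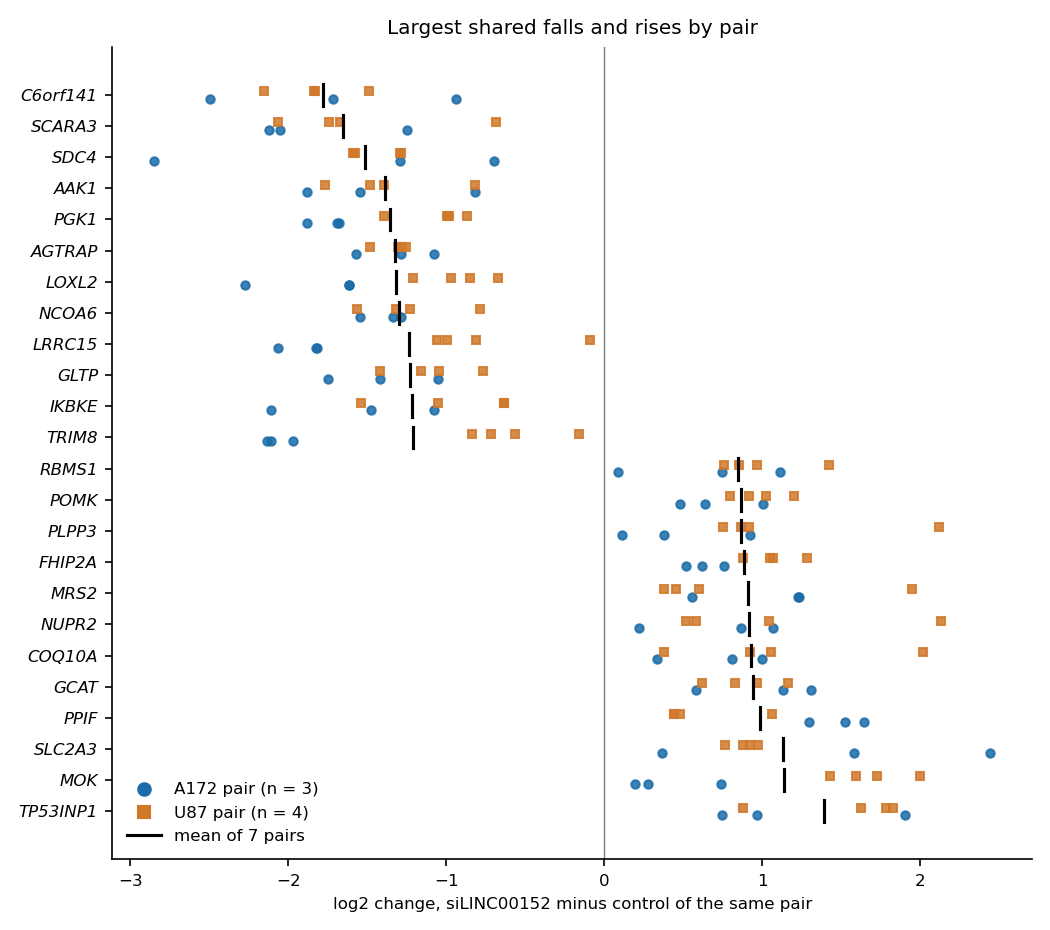
Log2 change of siLINC00152 against control in each of the 7 pairs for the 12 largest ranked falls and the 12 largest ranked rises (y axis), with A172 pairs as blue circles, U87 pairs as orange squares and the mean of 7 pairs as a black bar. Falls range from C6orf141 (-1.78) to TRIM8 (-1.21), and rises from RBMS1 (0.85) to TP53INP1 (1.39).

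U87 set 3 stood apart from the other pairs. The SD of its changes over all tested probes was 0.63, against 0.31 to 0.41 in the other 6 pairs, and its arrays were the dimmest (75th percentile of the signal 33.0 and 42.6). Over the called rises its median change was 0.94, against 0.50 to 0.61 in the other pairs. Over the called falls its median was -0.57, against -0.90 to -0.69. Without this pair 309 probes were called lower and 113 higher, against 185 and 124 with it, and 176 of the 185 and 91 of the 124 were among them. In this pair 50 of the called lower and 15 of the called higher probes were well above background on neither array, so their agreement in 7 of 7 pairs includes a pair that was not measured. On all 14 arrays 111 and 80 of the called probes were well above background. What sets this pair apart was not tested.

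PLPP3, MRS2, NUPR2 and COQ10A had their largest pair value in U87 set 3. All 4 were not well above background on its control array, so the size of that pair's value was not measured. PLPP3 levels were -0.91, -1.83 and -1.14 in A172 controls and -0.53, -0.90 and -1.03 with siLINC00152. In U87 they were -0.06, 0.01, -2.15 and 0.21 against 0.81, 0.76, -0.03 and 1.13. The control array of set 3 lay far below the other U87 controls, and the mean change of 0.87 became 0.66 without this pair. Without it, MRS2 rose by 0.74, NUPR2 by 0.72 and COQ10A by 0.75, and these 4 genes were still called. They lost the call without most of the other single pairs, and all 4 lost it with normexp background correction, with quantile normalization and with the deposited values.

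**Figure D3:**
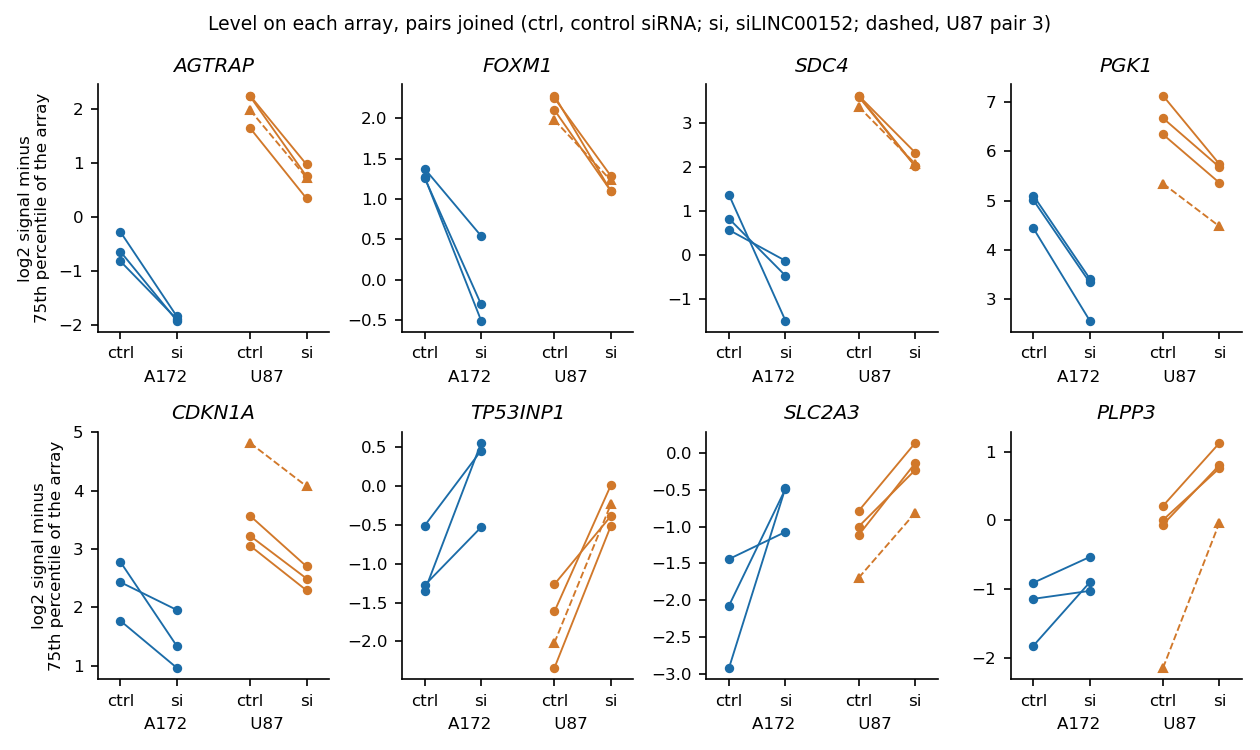
Level of 8 genes on each of the 14 arrays (y axis, log2 signal minus the 75th percentile of the array, with a scale of its own in each panel), with the control (ctrl) and siLINC00152 (si) arrays of a pair joined by a line. A172 is blue, U87 is orange, and the dashed line is U87 set 3, whose PLPP3 control array (-2.15) lies below the other U87 controls.

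The change differed between the lines for 34 of the tested probes (0.161%, 2199 at an unadjusted p under 0.05 from limma). This count depended on the pairs and on the scaling, with a line difference among tested probes in 38 without U87 replicate 3 and in 2 to 9 without any other single pair, in 232 with normexp background correction and in 10 with the deposited log2 values. In 33 of them the A172 change lay below the U87 change, and in 26 the mean changes had opposite signs. Among these were 2 of the called lower probes, TRIM8 and EPB41L1 (A172 minus U87 -1.32, adjusted p = 0.0435), and none of the called higher probes (0). STAT3, the transcription factor that the study followed up, was not among the shared changes. Its brightest probe was lower in 3 of 3 A172 pairs (mean -0.78) and higher in 4 of 4 U87 pairs (mean 0.57), so that its mean was -0.01 (adjusted p = 0.989). The difference between the lines was -1.35 with an adjusted p of 0.170. A further STAT3 probe moved in the same directions by less, with means of -0.44 in A172 and 0.11 in U87. Its difference between the lines was -0.54 (adjusted p = 0.329 from limma).

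FOXM1, a transcription factor of the G2 and M phases, had levels of 1.37, 1.27 and 1.26 in A172 controls and 0.54, -0.50 and -0.30 with siLINC00152, and of 2.10, 2.25, 1.98 and 2.28 in U87 controls and 1.1, 1.29, 1.23 and 1.1. The groups did not overlap in either line, and the change was -1.15 (SE 0.13, adjusted p = 0.00298, lower in 7 of 7 pairs). It was the only called gene of the 40 tested G2/M and mitosis genes, whose median change was 0.03, beside 0.01 over all tested genes. The called share of this list, 1.96% of its probes, is near the 1.46% of all tested probes. None of the 37 tested S phase and DNA replication genes was called (0), and their median was 0.12. The replication helicase subunits MCM6 (0.27) and MCM7 (0.08) were the brightest.

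Of 23 tested p53 target genes, 1 was called lower and 2 were called higher (13.8% of the list's probes, against 1.46% of all tested probes), and the median was 0.01. CDKN1A, which encodes the cell cycle inhibitor p21, fell by 0.83 (SE 0.11, adjusted p = 0.00528, lower in 7 of 7 pairs), from 2.43, 1.77 and 2.78 to 1.95, 0.96 and 1.33 in A172 and from 3.57, 3.22, 4.82 and 3.05 to 2.70, 2.49, 4.07 and 2.29 in U87. The groups overlapped in each line, and each pair fell. PLK2, a polo-like kinase, rose by 0.53 (adjusted p = 0.0245) with a call kept in 2 of 7 fits without a pair, and TP53INP1 rose as given above.

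Of 29 probes of the 23 tested TGF-beta and BMP genes, 4 were called lower and 1 was called higher (17.2%, against 1.46% of all tested probes). The ligand TGFB1 fell by 0.62 (SE 0.08, adjusted p = 0.00627), the receptor BMPR1A by 0.53 (adjusted p = 0.0127) and by 0.57 with a further called probe, and the transducer SMAD3 by 0.98 (adjusted p = 0.0330). TGFB1 levels were 1.90, 1.93 and 1.78 in A172 controls and 1.1, 1.30 and 0.94 with siLINC00152, and 1.52, 1.6, 1.17 and 1.63 in U87 controls and 0.94, 1.13, 0.85 and 0.95. The groups of each line did not overlap for TGFB1. Another BMPR1A probe was not called (-0.61, adjusted p = 0.115, lower in 6 of 7 pairs). SMAD3 was uneven in A172, with changes of -1.99, -0.27 and -0.31. LTBP1, which holds latent TGF-beta in the matrix, rose by 0.54 (adjusted p = 0.0499), and its other probe was not called (0.59, adjusted p = 0.141). Without single pairs LTBP1 kept its call in 0 of 7 fits, SMAD3 in 2 of 7, BMPR1A in 5 of 7 and TGFB1 in 7 of 7. LTBP1 and SMAD3 lost it with quantile normalization and with the deposited values, and TGFB1, BMPR1A and LTBP1 lost it with normexp background correction. The list's median was -0.02 and turned to 0.0007 after quantile normalization and to 0.0009 with the deposited values.

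Of 31 tested actin, SRF and YAP response genes, 2 were called lower and 1 was called higher (9.52% of the list's probes, against 1.46% of all tested probes). MYH9, the heavy chain of non-muscle myosin IIA, fell by 0.88 (SE 0.13, adjusted p = 0.00994) and by 0.92 with a further called probe. FHL2, a LIM-domain cofactor, fell by 0.88 (adjusted p = 0.0172), by 1.33 in A172 and by 0.53 in U87. Its call was kept in 5 of 7 fits without a pair, and a further FHL2 probe was not called (-0.31, adjusted p = 0.202, lower in 5 of 7 pairs). CCN2, a secreted YAP target, rose by 0.83 (SE 0.12, adjusted p = 0.00768), and in U87 set 3 it was well above background on neither array. CCN2 lost its call with normexp background correction and with the deposited values. The list's median was -0.09.

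Of 25 tested cholesterol and fatty acid synthesis genes, 2 were called higher and none was called lower (0), which is 7.41% of the list's probes against 1.46% of all tested probes. The list's median was 0.14, and 19 of its genes lay above 0, against 6242 of all 11789 tested genes. ACLY, which makes cytosolic acetyl-CoA, rose by 0.78 (adjusted p = 0.0253, call kept in 3 of 7 fits without a pair), and DHCR7, the last enzyme of cholesterol synthesis by one route, by 0.56 (SE 0.08, adjusted p = 0.00711). Of 28 tested hypoxia and glycolysis genes, PGK1 was called lower and SLC2A3 higher (5.71% of the list's probes, against the same 1.46%), with a median of 0.12. None of 31 tested ER stress and ATF4 genes was called (0), with a median of 0.12, and the chaperones HSP90B1 (0.09) and PDIA6 (0.19) were the brightest. Of 55 tested ribosomal protein genes, 48 lay above 0 with a median of 0.09 and none was called (0). RPL38 (0.04) and RPS27 (0.06) were the brightest of them.

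The interferon-induced protease USP18 was the single called member of 24 tested interferon-stimulated genes (0.84, SE 0.10, adjusted p = 0.00352, higher in 7 of 7 pairs). The list had 3.85% of its probes called, against 1.46% of all tested probes, and its median was 0.05. IKBKE was the single called member of 15 tested NF-kB and cytokine genes (5.56% of probes, median -0.19), and TRIM8 that of 24 tested JAK and STAT3 pathway genes (2.94% of probes, median -0.02). Of 18 tested RNA interference genes, AGO2, an Argonaute protein that loads siRNAs, was the one called, with a rise of 0.67 (SE 0.09, adjusted p = 0.00739) and a list median of 0.08 (4% of probes called). Of 34 tested autophagy and lysosome genes, the saposin precursor PSAP was called lower (-0.52, adjusted p = 0.0393, call kept in 1 of 7 fits without a pair), with 2.22% of probes called and a median of 0.08. A brighter PSAP probe was not called (-0.22, adjusted p = 0.212).

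None of 31 tested collagen, laminin and matrix genes was called (0), and their median was -0.03, or 0.03 with normexp background correction. The collagen VI chains COL6A1 (0.03) and COL6A2 (-0.08) were the brightest. Of 19 tested integrin, syndecan and cadherin genes SDC4 was the one called (4.76% of probes, against 1.46% of all tested probes, median -0.05). None of 26 tested MAPK feedback and immediate early genes was called (0), with a median of 0.00 and of -0.01 with normexp background correction. The transcription factor JUNB (-0.07) and the MAP kinase phosphatase DUSP4 (0.14) were the brightest. The renin-angiotensin list had a median of -0.08.

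**Figure D4:**
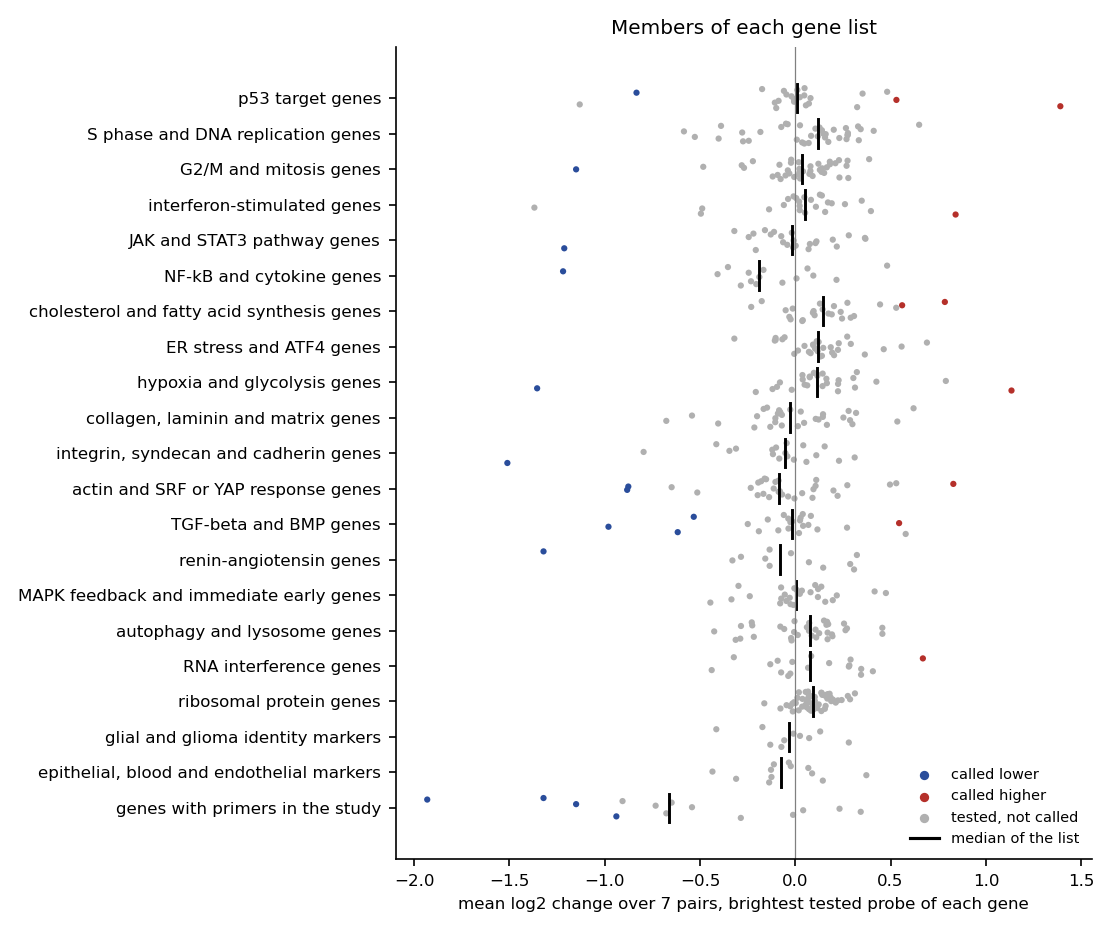
Mean log2 change over 7 pairs (x axis) of the brightest tested probe of each gene, for the 21 gene lists (y axis). Blue dots were called lower, red dots were called higher, grey dots were not called, and black bars are list medians, which run from -0.19 for NF-kB and cytokine genes to 0.14 for cholesterol and fatty acid synthesis genes, apart from -0.66 for the genes with primers in the study. The medians of the collagen, TGF-beta and MAPK lists change sign with the scaling.

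A further list holds 23 genes for which primers exist in the supplement, 20 of them named on the array. Of its 14 tested genes, 4 were called lower and none was called higher (0), with 23.8% of the list's probes called against 1.46% of all tested probes. The median was -0.66, but -1.38 in A172 and -0.06 in U87, and 4 of the list's probes differed between the lines. The called genes are AGTRAP, FOXM1, the inositol phosphatase SYNJ2 (-0.94, adjusted p = 0.0462, call kept in 1 of 7 fits without a pair) and the phospholipid flippase ATP9A. The ATP9A probes changed by -1.93 and -1.83. They were not well above background on any U87 array with siLINC00152, so they were at least 2.20-fold and 1.88-fold lower in U87. With normexp background correction the first of these ATP9A probes changed by -0.64. A further SYNJ2 probe was not called (-0.71, adjusted p = 0.0799). The primers belong to a study of the same samples, so the list is not independent evidence of its direction, though STAT3, one of its genes, came from earlier work in myeloma.

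The lines were checked against fixed marker lists. Of 22 glial and glioma markers, 12 were well above background on all A172 control arrays and 8 on all U87 control arrays. VIM and NES were the brightest, with control levels of 7.14 and 6.66 in A172 and 8.77 and 7.53 in U87. The glial markers S100B, OLIG1, PDGFRA, FABP7 and PROM1 were well above background on no array (0 of 14) by any probe, and GFAP on 1 by its brightest probe. Of 20 markers of epithelial, blood and endothelial cells, 14 and 9 were well above background on all control arrays of the lines. Among these KRT8 was the brightest (control levels 6.89 and 6.996), while CDH1, HBB and TEK were on no array and EPCAM was on 1. No marker of either list was called (0 of 10 and 0 of 12 tested genes), beside 1.46% of all tested probes. The list medians were -0.03 and -0.07. The glial marker CD44 differed between the lines, with -1.13 in A172 and 0.12 in U87 (adjusted p = 0.0289 from limma). The mean of the 7 pairs was -0.07 for VIM, 0.07 for NES, -0.31 for KRT8 and -0.03 for CD14.

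The summed signal of the glial markers, in multiples of the 75th percentile, was 248, 311 and 240 in A172 controls and 216, 271 and 205 with siLINC00152. In U87 it was 784, 833, 442 and 742 against 810, 861, 594 and 740. That of the other-cell markers was 199, 306 and 171 against 253, 343 and 202 in A172 and 214, 190, 157 and 106 against 141, 144, 107 and 94.4 in U87. With siLINC00152 the glial sum was lower in all 3 pairs of A172, while 3 of the 4 pairs of U87 had a higher one. The other sum was higher in all 3 pairs of A172, while all 4 pairs of U87 had a lower one. The brightest genes make up most of these sums. Mean levels of KRT18 went from 6.30 in A172 controls to 6.94 and those of KRT8 from 6.89 to 6.87, while in U87 KRT8 went from 6.996 to 6.47 and KRT18 was dim. For VIM the A172 means were 7.14 with the control and 6.78 with siLINC00152, and the U87 means were 8.77 and 8.91. The sums therefore rest on a few bright genes and do not by themselves show a move of a whole class of markers. Their part in the shared changes was not tested.

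Several genes were read by more than 1 probe. Of 85 called genes with several tested probes, all probes of 79 moved in the called direction. This counts the called probe itself, whose direction the rule fixes, and the share over all tested genes was not taken. Among the 85, 21 had 2 or more called probes, and 10 had all of their tested probes called. MAVS, the mitochondrial adaptor of RNA sensing, had 3 called probes among 7, all lower, and ANAPC1, a subunit of the anaphase-promoting complex, had 2 called among 7, all lower. The small GTPase RAB1A (-1.03 and -1.01) and the chromatin protein CIZ1 (-0.66 and -0.61) were called lower with both of their probes. The aldo-keto reductase AKR1C1 (0.69 and 0.66) and the metalloprotease ADAMTS1 (0.78 and 0.70) were called higher with both. These 6 genes were picked from the 21 after their values were seen. No gene was called in both directions (0).

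Probes without a gene symbol made up 13.0% of the called lower probes and 8.87% of the called higher ones, against 29.3% of all tested probes. The largest ranked falls among them were TCONS_l2_00012321 (-1.41), BX445743 (-1.35) and ENST00000443467 (-1.35). The largest fall of all called probes, -2.03, was that of a probe without a symbol outside this ranking. BX445743 had levels of 1.01, 0.80 and 0.56 in A172 controls and -0.68, -0.82 and -1.47 with siLINC00152, and of 1.98, 2.11, 1.76 and 2.26 in U87 controls and 0.94, 0.98, 0.90 and 1.15. The groups did not overlap in either line. The rises were ENST00000591313 (0.78), ENST00000454608 (0.77) and ENST00000560295 (0.72). All 6 ranked transcripts were called, with adjusted p-values from 0.000954 to 0.0103. ENST00000443467 was not well above background on the siLINC00152 arrays of U87 sets 2 and 4, and ENST00000560295 was not on the control array of U87 set 3.

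Promoters of members that moved together are shown to let their sequence be read beside the values. RefSeq (GRCh38.p14) gives promoters from 250 bases before to 50 bases after the start for 106 of the 144 genes called lower, 89 of the 108 called higher and 77.6% of the tested genes. Because the tested genes and the lower genes (73.6%) lie under 80%, no motif share is compared between them. On both strands, 8 motifs were searched, namely CCAAT (NF-Y), TGANTCA (AP-1), CACGTG (E-box), TTTGAA (cell cycle homology region), TTCNNNGAA (STAT), TGACGTCA (CREB), GTCTAGAC (SMAD) and TGATGNAAT (ATF4). Printed are AGTRAP and the 2 largest ranked falls and rises that have 1 promoter in the table and may be printed here, with motif matches in capitals.
C6orf141, chr6:49550418-49550717, plus strand: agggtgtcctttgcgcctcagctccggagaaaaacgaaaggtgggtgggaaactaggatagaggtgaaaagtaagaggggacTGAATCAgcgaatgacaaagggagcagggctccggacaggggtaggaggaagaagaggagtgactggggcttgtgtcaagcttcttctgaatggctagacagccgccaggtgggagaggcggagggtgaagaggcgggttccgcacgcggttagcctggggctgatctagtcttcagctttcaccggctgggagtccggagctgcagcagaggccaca
SDC4, chr20:45348375-45348674, minus strand: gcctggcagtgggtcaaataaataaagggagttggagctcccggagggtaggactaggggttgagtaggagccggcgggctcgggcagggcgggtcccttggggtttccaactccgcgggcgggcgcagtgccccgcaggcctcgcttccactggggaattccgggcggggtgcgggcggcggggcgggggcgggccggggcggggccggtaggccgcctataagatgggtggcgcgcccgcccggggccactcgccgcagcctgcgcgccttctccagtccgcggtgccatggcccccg
AGTRAP, chr1:11735886-11736185, plus strand: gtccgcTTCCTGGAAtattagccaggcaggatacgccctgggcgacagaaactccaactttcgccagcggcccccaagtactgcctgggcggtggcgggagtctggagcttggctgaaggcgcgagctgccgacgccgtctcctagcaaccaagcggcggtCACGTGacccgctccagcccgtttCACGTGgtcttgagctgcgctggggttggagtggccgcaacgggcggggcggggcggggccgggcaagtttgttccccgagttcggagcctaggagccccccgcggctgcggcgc
MOK, chr14:102305115-102305414, minus strand: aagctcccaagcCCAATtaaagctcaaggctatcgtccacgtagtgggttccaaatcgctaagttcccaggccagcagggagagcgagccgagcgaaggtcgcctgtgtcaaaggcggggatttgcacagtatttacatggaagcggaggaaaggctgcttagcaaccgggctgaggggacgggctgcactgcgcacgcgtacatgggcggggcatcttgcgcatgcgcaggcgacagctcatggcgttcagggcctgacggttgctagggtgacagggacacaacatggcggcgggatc
PPIF, chr10:79347219-79347518, plus strand: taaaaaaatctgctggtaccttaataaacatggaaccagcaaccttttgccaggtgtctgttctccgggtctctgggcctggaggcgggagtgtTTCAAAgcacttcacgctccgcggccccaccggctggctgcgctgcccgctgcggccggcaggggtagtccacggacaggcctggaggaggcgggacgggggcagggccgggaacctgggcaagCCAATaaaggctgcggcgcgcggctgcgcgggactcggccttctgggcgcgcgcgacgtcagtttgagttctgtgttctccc

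The AGTRAP window holds CACGTG at 2 places, a motif in 7.26% of all 35116 promoters, and TTCNNNGAA once (7.66%). The C6orf141 window holds TGANTCA, which 7.71% of all promoters hold, and the SDC4 window holds none of the motifs. The MOK and PPIF windows each hold CCAAT, a motif of 34.6% of all promoters, and PPIF also holds TTTGAA (15.2%). The shares over all promoters of TGACGTCA, TGATGNAAT and GTCTAGAC are 1.85%, 0.991% and 0.202%. A match is a description of letters and names no active site.

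The calls rest on 7 pairs, and their number limits the precision. In A172 each pair shares a slide. All U87 arrays lie on 1 slide with the controls in its first row and siLINC00152 in its second, so row and siRNA cannot be told apart there. Without the pairing as a block 27 probes were called lower and 4 higher.

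Of the 47 named probes that were called, 28 kept the call with normexp background correction, 38 with quantile normalization and 35 with the deposited values. Beside the genes given above, SLC2A3, GCAT, FHIP2A, DHCR7, PLK2, PSAP, SYNJ2, ENST00000560295 and ENST00000454608 lost it with normexp background correction. SYNJ2 and LRRC15 lost it with quantile normalization, and SYNJ2, LRRC15, PSAP and PLK2 with the deposited values.

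**Figure D5:**
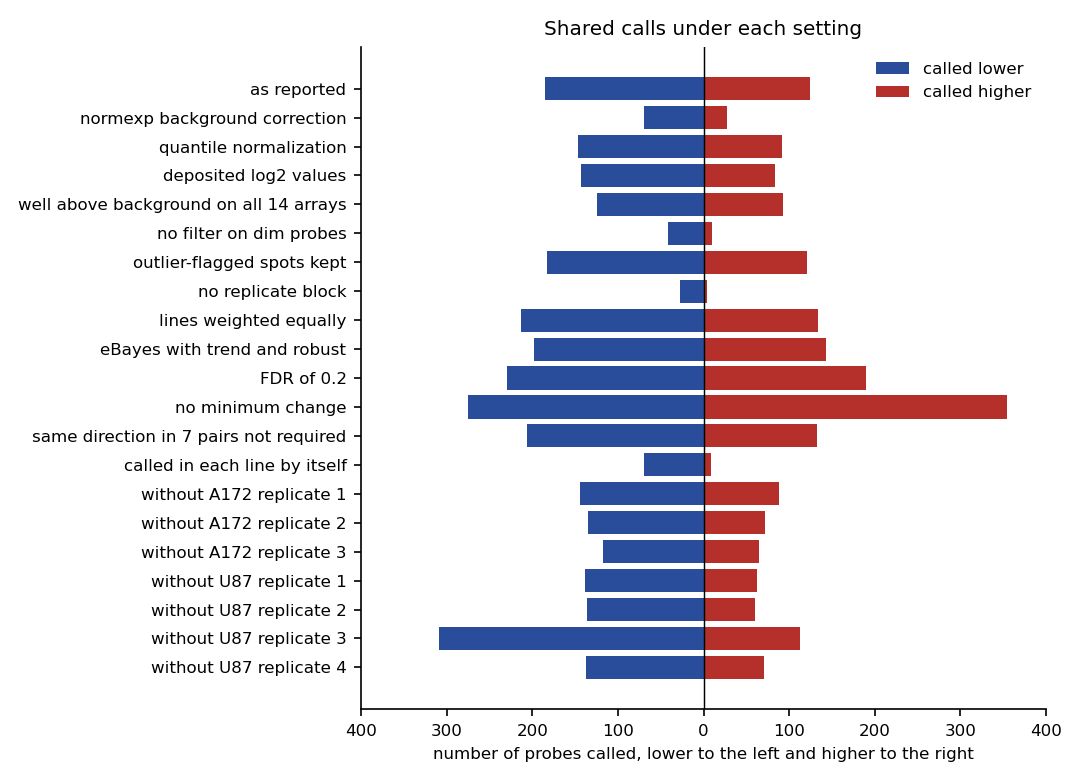
Number of probes called lower (blue, to the left) and higher (red, to the right) as reported and under each alternative (y axis). The longest lower bar is that without U87 replicate 3 (309), and the shortest bars are those without the replicate block (27 lower, 4 higher).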

How the data were processed

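RNA of 14 cultures was hybridised to one-colour Agilent arrays. The authors deposited scanner output in which Feature Extraction 11.5.1.1 gave each spot an intensity, background-subtracted (processed signal), and a table of log2 values that the authors normalized between arrays, for which the supplement refers to an earlier publication. That table ranks the spots of each array as the processed signal does, and its column medians are 4.49 to 4.56.

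Log2 processed signals were reduced by each array's 75th percentile, without control spots and spots flagged as outliers, and averaged by probe. A probe was well above background where at least 0.5 of its spots were. Of 50599 probes, 21166 passed the filter in both lines and 21125, with a value in every pair, were tested, including 5 of the target locus. RefSeq accessions named 29033 probes (20992 genes). Paired differences were fitted with limma 3.58.1 in R 4.3.3 (lmFit, eBayes), with Benjamini-Hochberg adjustment over all tested probes, and the lines were compared in a fit with a mean per line.

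Arrays of the same number deviated together (correlations 0.712 to 0.837 in A172 and 0.384 to 0.869 in U87, against -0.722 to -0.108 and -0.776 to 0.415 for other numbers). In A172 the arrays of a number also share a slide. In U87 the ranges overlap, and siLINC00152 set 1 correlated more with control set 2 (0.415) than with control set 1 (0.384). The pairing therefore rests on the set numbers of the labels. Named are the 12 largest called falls and rises with a symbol and well above background on at least 0.5 of the arrays of each group. Up to 4 called members of each of 21 gene lists, or the brightest 2 where none was called, are also named. So are 3 transcripts without symbol in each direction. For each gene 1 probe was taken, the brightest called one, or the brightest where none was called. "At least" folds set the brighter group's mean against the lowest signal well above background. The members and lists were chosen with earlier results of these data known. Alternatives concerned background correction, normalization, filter, flags, pairing, weights, variance model, thresholds and pairs left out. No set test was run.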

Additional observations from a re-analysis of the deposited data

Results flagged for a closer look

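For 62 named probes, the changes of the 7 pairs and of the 4 U87 pairs were examined for a value far from the others, and so were 4 sets of array measures, 128 sets in all. In 14 sets 1 value lay beyond the limit of Dixon's ratio, while chance gives about 1 in 20.

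In 12 of these the distant value was that of U87 set 3, whose arrays were the dimmest. Among the U87 pairs it gave 0.47 for VIM (others -0.01 to 0.07), 1.37 for LTBP1 (0.39 to 0.50), 1.09 for AGO2 (0.57 to 0.65), 1.34 for ACLY (0.71 to 0.81), 2.12 for PLPP3 (0.75 to 0.92), 1.95 for MRS2 (0.38 to 0.60) and 1.06 for PPIF (0.44 to 0.48). Among all 7 pairs it gave -0.79 for NCOA6 (others -1.56 to -1.23), 0.87 for DHCR7 (0.43 to 0.61) and 2.02 for COQ10A (0.34 to 1.06), and it also stood apart for LTBP1 and PLPP3. On the control array of this set PLPP3, MRS2 and COQ10A were not well above background, so the sizes of these 3 values were not measured. In A172, set 1 gave -2.85 for SDC4 (others -1.59 to -0.70) and set 3 gave -1.44 for CDKN1A (others -0.87 to -0.48).

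The change of TRIM8 differed between the lines by a test of the difference (A172 minus U87 -1.503, adjusted p = 0.0335 from limma). TRIM8 fell in 7 of 7 pairs.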

How the results depend on the processing

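Each of the 309 calls kept its direction under every alternative in which its probe was tested, and 140 of them (105 lower, 35 higher) were called again in every fit that left out 1 pair. Leaving out single pairs gave 118 to 309 lower probes, 60 to 113 higher probes and 2 to 38 probes with a line difference. The lower count moved by over 1.5 times without A172 set 3 (118) and U87 set 3 (309), and the higher count without A172 sets 2 (72) and 3 (65) and U87 sets 1 (63), 2 (60) and 4 (71).

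Without the pairing as a block 27 probes were lower, 4 were higher and 1 differed between the lines, against 185, 124 and 34 as reported, and 31 of the 47 called named probes lost their call. Normexp background correction gave 70 lower and 27 higher probes and a line difference among tested probes in 232, and higher probes were 27.8% of its calls against 40.1%. It added an offset of 50 to every signal, beside 75th percentiles of the processed signal of 33.0 to 69.0 on the U87 arrays. Such an offset makes log2 changes of dim probes smaller by construction. The falls with it were smaller, such as -0.64 against -1.93 for ATP9A, -0.57 against -1.35 for ENST00000443467 and -0.89 against -1.38 for AAK1. That of NCOA6 was -0.82 against -1.30, while PGK1 moved less (-1.31 against -1.35). Without the filter on dim probes the counts were 41, 10 and 0 (3474 probes at an unadjusted p under 0.05 from limma). Called in each line by itself, 69 were lower and 9 higher. An FDR of 0.2 gave 190 higher probes and 280 line differences, and no minimum change gave 354 higher probes. Line differences numbered 16 with quantile normalization, 10 with the deposited log2 values, 54 with probes well above background on all 14 arrays and 71 with a variance trend and robust fit. The other counts stayed within 1.5 times, and the causes were not tested.

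No called named gene changed sign, which the rule of the call fixes wherever the same paired differences were fitted again. Of uncalled ones, CD14 turned to 0.0236 with normexp background correction, and leaving out pairs gave -0.135 to 0.0482 for CD14, -0.217 to 0.217 for STAT3, -0.0432 to 0.0778 for COL6A1, -0.0352 to 0.0814 for RPL38 and -0.0370 to 0.122 for RPS27. LTBP1 kept its call in none of the 7 fits without a pair (0).

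Signal over background limits the dim probes. Of the 309 called probes, 14 were well above background on no array of 1 group, so their change has only a lower limit, and 160 of the lower and 114 of the higher ones were measured on both sides.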
